A study of Mus musculus with 29 samples.

Results

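The genes described here are 10 of the 54532 genes counted in the colon of 29 mice, chosen by symbol because they carry ions and water across the epithelium of the colon. They are Car1, Car4, Slc26a3, Slc26a2, Slc9a3, Aqp8, Cftr and the 3 subunit genes of the epithelial sodium channel, Scnn1a, Scnn1b and Scnn1g. Each of 6 mouse models of colitis was compared with the untreated mice that served as its control, to see how the transport genes of the colon stand in inflammation of different origin. Poly(A) RNA from a piece of whole colon was sequenced, 1 library per mouse, and the labels do not name the part of the colon. The paper's methods name the distal region for colon RNA put on microarrays, without mention of these sequencing libraries.

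TRUC mice (n = 4) were untreated Balb/C Tbx21-/- x Rag2-/- animals, which develop colitis without any treatment, and their controls were untreated Rag2-/- mice, Balb/C by their titles (n = 3). Untreated Balb/C mice (n = 3) were the shared controls of the DSS, DNBS and IL10 antibody groups, all Balb/C. DSS mice (n = 3) drank 3% dextran sulphate sodium, which injures the epithelium, for 5 days and were culled in recovery on day 10. DNBS mice (n = 3) received 200 µl of ethanol with 3 mg of the hapten DNBS into the rectum. IL10 antibody mice (n = 4) carry the treatment label IL10 blocking antibody, the protocol lists 750 µg of an antibody to the IL-10 receptor with culling by 4 weeks, and the paper's methods describe Il10-/- mice instead. Untreated C57BL/6 mice labelled Rag1-/- (n = 3) were the shared controls of TCT and anti-CD40, which carry the same strain and genotype labels. TCT mice (n = 3) received naive CD4+ T cells and were culled after 6 to 8 weeks, and the protocol calls these recipients Rag2-/-. Anti-CD40 mice (n = 3) were culled 7 days after 50 µg of the agonistic antibody. Mice without Rag1 or Rag2 make no T or B cells of their own, and this holds for the controls of TRUC, TCT and anti-CD40 too. The labels give no ages, and strain and timing differ between labels and paper for several groups.

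Surface colonocytes absorb sodium and chloride, and water follows. In electroneutral absorption the sodium-proton exchanger NHE3 (Slc9a3) and the chloride-bicarbonate exchanger DRA (Slc26a3) work side by side, while carbonic anhydrase in the cytosol (Car1) and on the cell surface (Car4) interconverts carbon dioxide with the bicarbonate and protons that are exchanged. In the distal colon the amiloride-sensitive channel ENaC, assembled from alpha, beta and gamma subunits (Scnn1a, Scnn1b, Scnn1g), takes up sodium under the control of aldosterone. Aqp8 is a water channel of colonocytes, Slc26a2 carries sulphate, and Cftr is the cyclic AMP-gated chloride channel through which crypts secrete fluid. Loss of SLC26A3 causes congenital chloride diarrhoea in humans.

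Levels are given as CPM, the counts of a gene scaled to a common library total after TMM normalization, and CPM per kb divides these by the summed exon length of the gene. Changes are log2 fold changes with standard errors from 1 edgeR quasi-likelihood fit of all 9 groups, p-values are adjusted over the 18616 genes tested, and a gene is called at an adjusted p below 0.05. All 10 genes were tested. Library totals ranged from 10725564 to 14977094 counts, so that 3 counts, the limit a count of 0 allows, equal 0.179 to 0.314 CPM. Rag gene counts did not match every genotype label. Rag2 had 6 to 20 counts in the libraries labelled Rag1-/- control, 15 to 25 in the Rag2-/- controls, 48 to 99 in the libraries labelled anti-CD40 and 0 in TCT, while Rag1 had 20 to 33 counts in TCT and 0 to 4 in the libraries labelled Rag1-/- control. Tbx21 reads numbered 26 to 52 in the libraries labelled TRUC, which should lack the gene, and 1 to 7 in Rag2-/- controls. Each TRUC mouse gave between 57 and 94 reads of Rag2. Balb/C control, DSS, DNBS and IL10 antibody mice gave at most 1 Rag2 read and 3 Rag1 reads. By Rag reads, anti-CD40 mice and the labelled Rag1-/- controls thus resembled the Rag2-/- groups, and TCT mice did not. A disrupted gene can still give reads, so these counts settle no genotype. Whether TCT mice share a genotype with their controls was not tested, and the TCT results below carry this limit. TCT and anti-CD40 were also compared with other controls.

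Among 6 HOX genes that mark the distal colon (Hoxb13, Hoxa13, Hoxd10, Hoxd11, Hoxd12 and Hoxd13), the 4 Hoxd genes were lower in IL10 antibody mice 3 and 4 than in every other library, with Hoxd13 at 7.89 and 0.314 CPM against 249 and 276 CPM in mice 1 and 2. Mouse 4 was also the lowest in Hoxb13 (0.209 CPM) and Hoxa13 (0.732 CPM), whereas mouse 3, at 344 and 67.2 CPM, was not. The summed level of the 6 genes was 9.51 CPM in mouse 4, 423 CPM in mouse 3, 817 and 875 CPM in mice 1 and 2, 792 to 1004 CPM in Balb/C controls, 262 to 535 CPM in DSS and 636 to 1066 CPM in the other 6 groups. Results of the IL10 antibody group are therefore given with and without mice 3 and 4. Marker sums also moved with the models. The 5 neutrophil markers summed to 0.892 to 2.11 CPM in the controls and to 21.9 CPM or more in every colitis library, with the highest sums in TRUC (756 to 1255 CPM) and DSS (183 to 1715 CPM). The 10 pan-epithelial markers summed to 14063 to 15046 CPM in TRUC against 11726 to 12699 CPM in Rag2-/- controls, and to 6785 to 8711 CPM in DSS, 10066 to 12878 CPM in DNBS and 13933 to 19067 CPM in IL10 antibody mice against 9392 to 11168 CPM in Balb/C controls. They summed to 11756 to 13375 CPM in TCT and 12911 to 14012 CPM in anti-CD40 against 10560 to 11709 CPM in the libraries labelled Rag1-/- control. Other cell types moved as well. In TRUC goblet cell markers summed to 3671 to 5080 CPM against 9272 to 10552 CPM. Clca1 (77.9 to 414 CPM against 3430 to 4502 CPM), Tff3 and Zg16 lay below all controls. Muc2 (835 to 1281 CPM against 823 to 978 CPM), Fcgbp and Spdef overlapped them. Smooth muscle markers summed to 2969 to 4353 CPM against 5979 to 6587 CPM, and leukocyte markers to 115 to 182 CPM against 45.2 to 71.2 CPM. Crypt base and proliferation markers summed to 780 to 900.5 CPM against 391 to 427 CPM, but the list was split. Mki67, Top2a and Pcna lay above all controls, and Lgr5, Ascl2 (1.25 to 2.44 CPM against 8.77 to 11.9 CPM) and Axin2 below them. The goblet cell sum was also low in TCT (3456 to 6993 CPM against 9657 to 12687 CPM). The leukocyte sum was high in TCT (311 to 446 CPM against 42.6 to 55.8 CPM) and DSS (353 to 954 CPM against 135 to 154 CPM). The smooth muscle sum was low in IL10 antibody mice (2628 to 4955 CPM against 6489 to 8061 CPM). In whole colon, fewer colonocytes and less RNA per colonocyte cannot be told apart, and the part of these shifts in the results below was not tested beyond the scaling to epithelial markers given in the closing section.

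Most of the 10 genes had lower estimates in every model, with most calls in TRUC, while the sodium-proton exchanger gene Slc9a3 was called higher in 2 models and lower in 1. In TRUC 8 of 10 genes fell and none rose, where 23.4% of all genes tested fell and 22.4% rose. Scnn1a and Slc9a3 were the 2 that did not pass. In DSS 4 genes fell (Slc26a2, Aqp8, Scnn1a and Cftr) and Slc9a3 rose, against 16.3% of all genes lower and 17.7% higher. In IL10 antibody mice 4 fell (Slc26a3, Slc26a2, Scnn1b and Scnn1g) and Slc9a3 rose, against 26.1% and 27.2% of all genes, and without mice 3 and 4 the numbers were 6 lower and 1 higher, against 21.4% and 23.0% of all genes in that fit. In TCT 5 fell (Car4, Slc26a3, Slc26a2, Slc9a3 and Cftr) and none rose, against 14% and 16.1%. In anti-CD40 2 fell (Car1 and Cftr) and none rose, against 10.7% and 10.9%.

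DNBS was the model in which edgeR called none of the 10 genes, with 2.21% of all genes lower and 3.95% higher. At an unadjusted p below 0.05 there were 4 lower and 1 higher, DESeq2 on the 2 groups called 6 lower and 0 higher, and edgeR on the 2 groups alone called 3 lower and 0 higher. The shares of all genes just given are those of the edgeR fit of all groups, so these 3 sets of counts cannot be set against them. Over the 6 models, 52 of 60 changes were negative, 23 were called lower and 2 higher. The 10 genes had median changes of -2.27 in TRUC and -1.29 in TCT, of -1.0 in DNBS, -0.87 in DSS and -0.75 in IL10 antibody mice, and of -0.41 in anti-CD40, whereas the median over all genes lay between -0.03 and 0.02. Every mouse of the model lay below every control for 9 of 10 genes in TRUC, 6 in DSS, 6 in DNBS, 4 in IL10 antibody, 7 in TCT and 3 in anti-CD40. The share of all genes separated in that direction was 29.2%, 24.0%, 16.9%, 28.0%, 21.7% and 20.4%, in the same order.

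**Figure D1:**
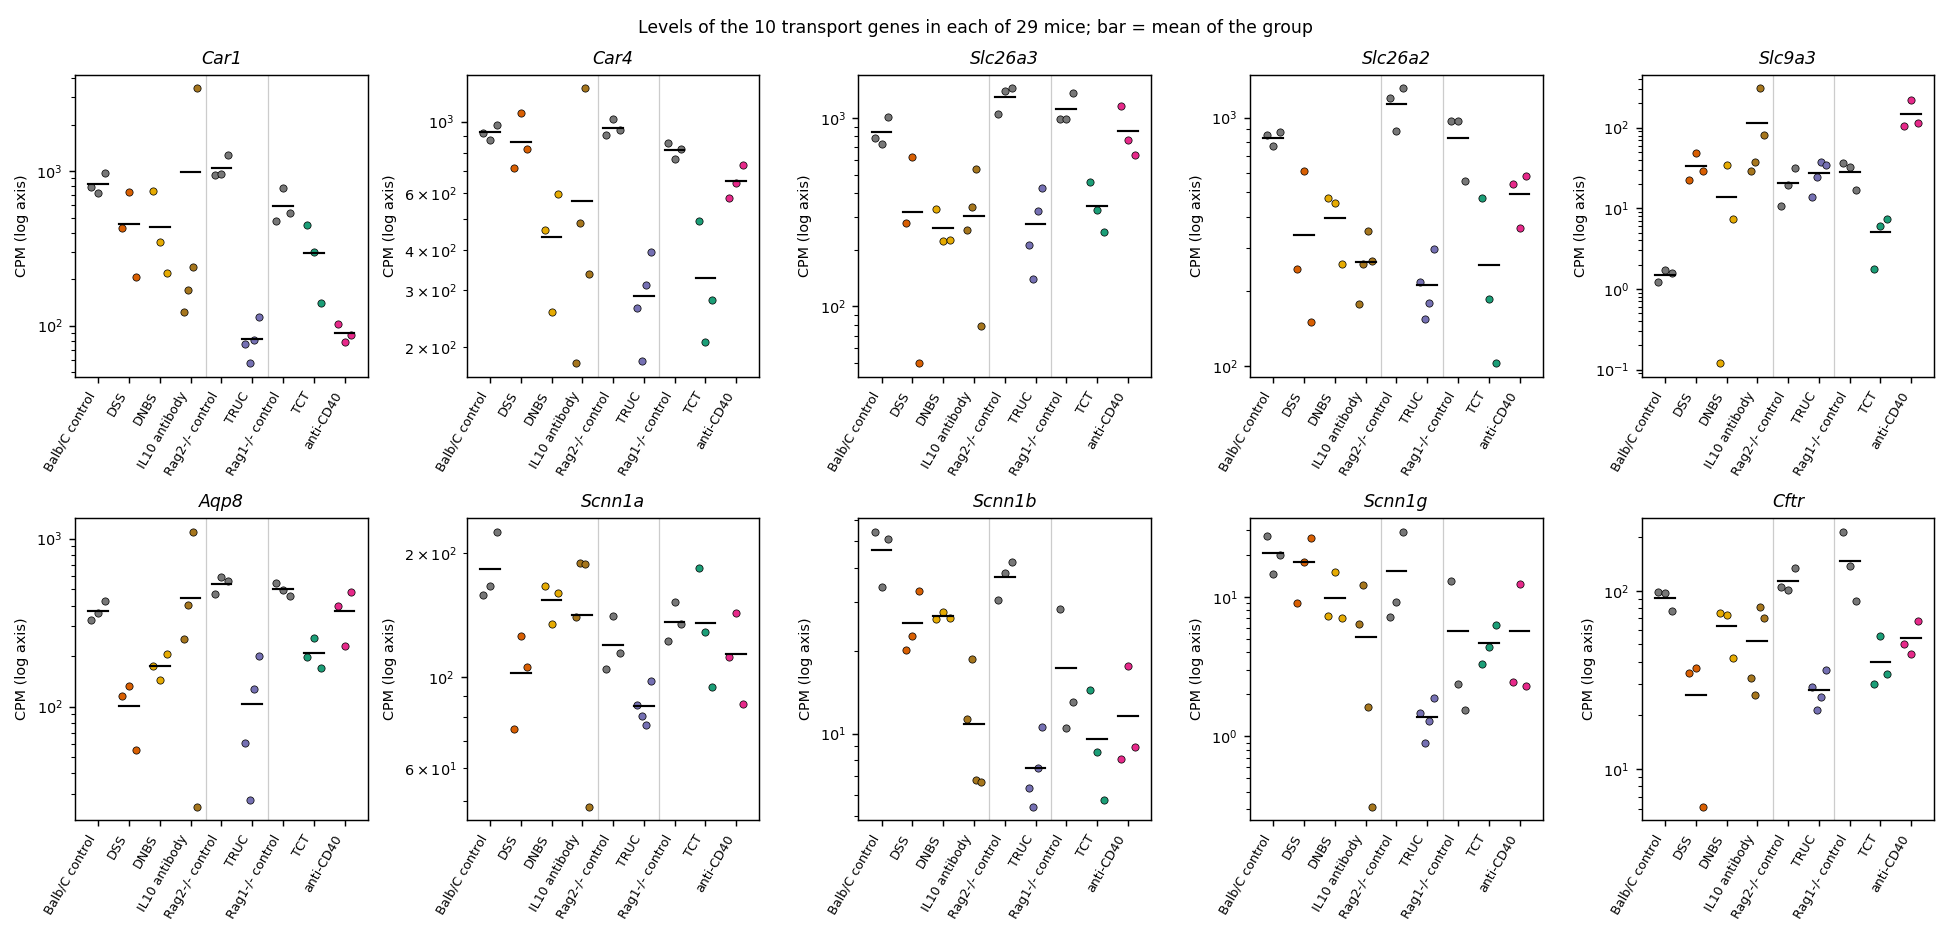
Level of each of the 10 transport genes in every mouse, as CPM on a log axis, with 1 panel per gene, 1 point per mouse and a bar at the group mean. TRUC points lie below all Rag2-/- controls in every panel but that of Slc9a3, and Slc9a3 is lowest in the Balb/C controls (1.22 to 1.73 CPM) apart from 1 DNBS mouse (0.119 CPM).

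**Figure D2:**
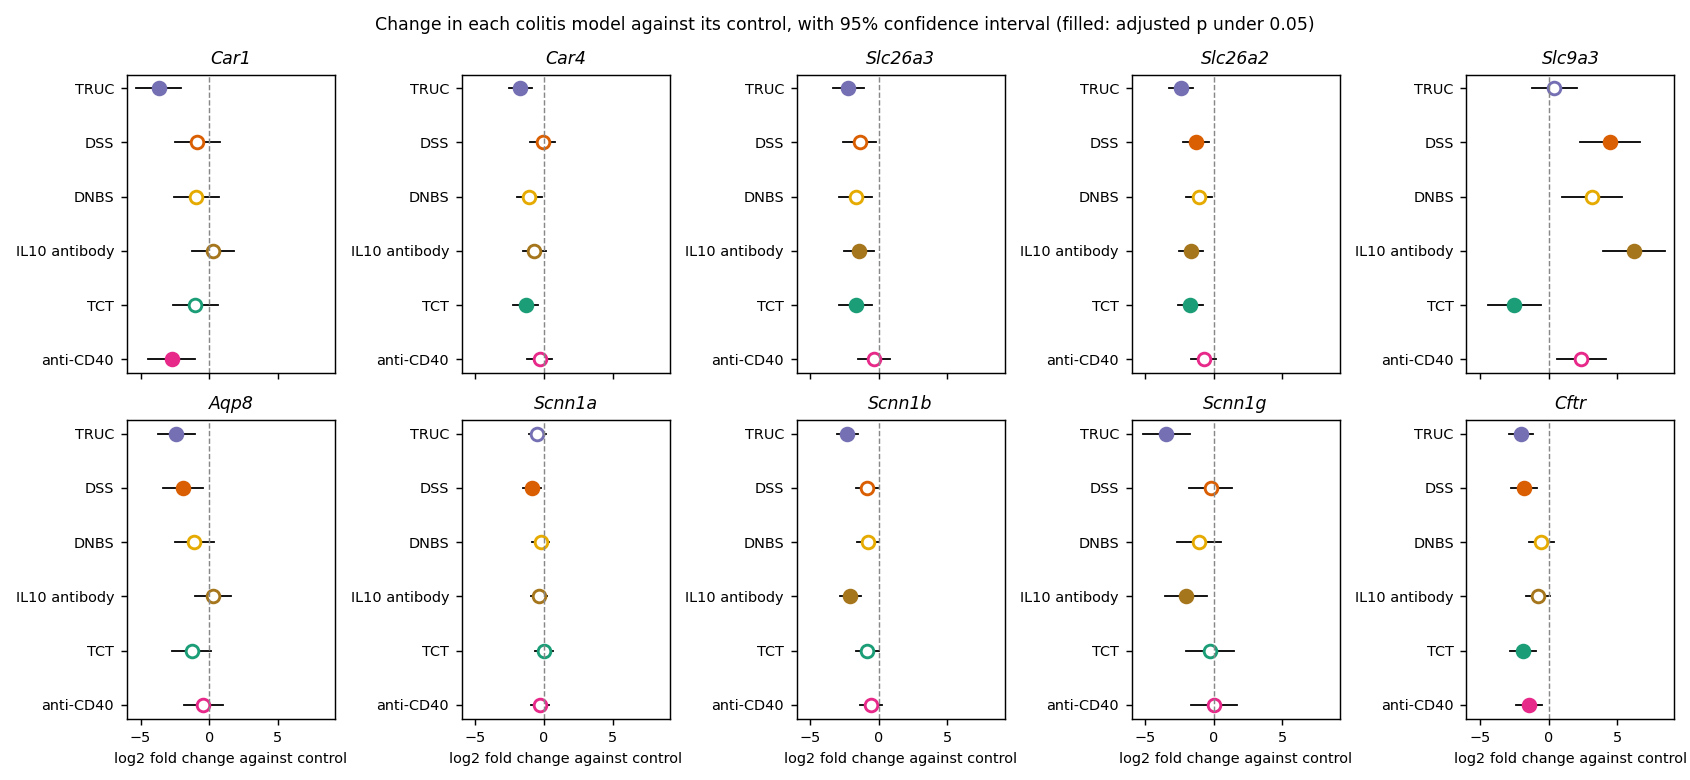
Log2 fold change of each gene in each of the 6 models against its own control, with the 95% interval, filled where the adjusted p of edgeR was below 0.05. Most estimates lie left of 0, and those of Slc9a3 run from -2.50 in TCT to 6.23 in IL10 antibody mice.

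Slc26a3 (ENSMUSG00000001225, chr12:31390871-31473917, GRCm38, + strand), the chloride-bicarbonate exchanger, was among the most abundant of these transcripts in healthy colon, at 844 ± 153 CPM (SD, n = 3) in Balb/C controls, 1298 ± 208 CPM in Rag2-/- controls and 1113 ± 215 CPM in the libraries labelled Rag1-/- control. In TRUC it had 212, 140, 322 and 427 CPM in mice 2 to 5, against 1059.5, 1393 and 1443 CPM in the controls. The groups did not overlap, and the change was -2.24 ± 0.54 (4.72-fold lower, adjusted p = 0.00181, edgeR). In TCT the 3 mice had 456, 325 and 249 CPM, against 985, 991 and 1362 CPM. All TCT mice were below all controls, with a change of -1.70 ± 0.59 (adjusted p = 0.0308, edgeR), and the call was lost without TCT mouse 3 or 5 or control 3 or 4. In anti-CD40, compared with the same controls, the 3 values of 1157, 770 and 634 CPM overlapped them and the change was -0.38 (95% interval -1.56 to 0.80, adjusted p = 0.677, edgeR).

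In the Balb/C models, the controls had 788, 725 and 1017 CPM of Slc26a3. IL10 antibody mice had 255, 338, 540 and 78.9 CPM, all below the controls, with a change of -1.48 ± 0.53 (2.78-fold lower, adjusted p = 0.0229, edgeR) and of -1.51 (adjusted p = 0.0425) without mice 3 and 4. The call was lost without control 4 or IL10 antibody mouse 1 or 4. DNBS mice had 330, 224 and 226 CPM, also below all controls, but the change of -1.70 (95% interval -2.91 to -0.49) had an adjusted p of 0.0801 in edgeR. DSS mice were widely spread at 279, 624 and 49.8 CPM, and the change of -1.41 (95% interval -2.61 to -0.21) did not pass (adjusted p = 0.0636, edgeR) except without DSS mouse 6, the mouse with the highest value.

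Slc26a2 (ENSMUSG00000034320), the sulphate transporter, was called lower in 4 models, TRUC, DSS, IL10 antibody and TCT, and had a negative estimate in the other 2. TRUC mice had 218, 155, 179 and 296 CPM, against 1198, 884 and 1313 CPM in Rag2-/- controls. The groups were far apart, and the change was -2.42 ± 0.42 (5.34-fold lower, adjusted p = 8.81e-05, edgeR). In TCT the change was -1.71 ± 0.45 (3.27-fold lower, adjusted p = 0.00569, edgeR), with 474, 187 and 103 CPM against 970, 967 and 558 CPM. IL10 antibody mice had 178, 256, 351 and 265 CPM and DSS mice 246, 610 and 150 CPM, against 849, 766 and 880 CPM in the shared controls. All mice of both models were below the controls, by -1.66 ± 0.41 in IL10 antibody (adjusted p = 0.00178, edgeR), and by -1.31 ± 0.45 in DSS (adjusted p = 0.0265, edgeR). The DSS call was lost without control 1 or 4 or DSS mouse 5 or 8. DNBS mice, at 474, 453 and 258 CPM, lay below the controls without a call (-1.07, 95% interval -1.99 to -0.16, adjusted p = 0.139, edgeR), and anti-CD40 gave -0.75 (95% interval -1.66 to 0.16, adjusted p = 0.233, edgeR).

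Aqp8 (ENSMUSG00000030762, chr7:123462291-123468004, + strand), the water channel, followed Slc26a3 across mice. The correlation of their log2 CPM was 0.82 over all 29 mice and 0.76 after each group's mean was removed, and these mice share their groups and whatever differs between tissue pieces. The RefSeq promoter windows of both genes are shown because the genes moved together. Each runs from 250 bases before to 50 after a RefSeq transcription start on the + strand of GRCm38.p6, chr12:31437969-31438268 for Slc26a3 and chr7:123462044-123462343 for Aqp8, 5′ to 3′. The Slc26a3 window lies inside the gene as annotated, which has 7 transcripts. Which start was used in these colons was not tested. Capitals mark TTTAT, the core that caudal-type factors such as Cdx2 bind, and CAAAG, a partial site of the nuclear receptor HNF4, read on either strand.
Slc26a3: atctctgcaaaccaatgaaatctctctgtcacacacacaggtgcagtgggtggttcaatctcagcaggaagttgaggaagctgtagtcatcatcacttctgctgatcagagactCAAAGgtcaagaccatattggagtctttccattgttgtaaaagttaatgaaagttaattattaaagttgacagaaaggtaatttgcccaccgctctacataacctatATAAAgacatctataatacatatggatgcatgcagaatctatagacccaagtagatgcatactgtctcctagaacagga
Aqp8: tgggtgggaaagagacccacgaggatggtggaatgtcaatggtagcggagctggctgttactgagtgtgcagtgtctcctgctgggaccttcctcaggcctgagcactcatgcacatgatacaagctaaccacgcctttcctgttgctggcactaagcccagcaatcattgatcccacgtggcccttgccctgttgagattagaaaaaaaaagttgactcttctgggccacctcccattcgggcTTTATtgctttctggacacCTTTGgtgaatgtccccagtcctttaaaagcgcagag
Both windows hold both motifs as matches of letters, and binding of any factor to them was not tested. TTTAT begins at -29 in Slc26a3 and at -6 in Aqp8 relative to the start, and CAAAG begins at -136 and at 14. In Slc26a3 it reads ATAAA on the + strand, within the longer stretch TATATAAAG. The letters alone do not tell which protein, if any, binds there. Such letters are common: of 32851 promoter windows of the same length, 40.0% hold TTTAT and 53.9% hold CAAAG. A window was found for 7 of the 10 genes, Car4, Slc26a3, Slc9a3, Aqp8, Scnn1b, Scnn1g and Cftr.

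Aqp8 in TRUC was at 60.9, 27.7, 127 and 199 CPM, against 468, 592 and 562 CPM in Rag2-/- controls. The groups were separate, with a change of -2.38 ± 0.65 (5.22-fold lower, adjusted p = 0.00464, edgeR). DSS mice had 116, 132 and 54.9 CPM, against 328, 359 and 427 CPM in Balb/C controls. They too lay apart, by -1.88 ± 0.71 (3.67-fold lower, adjusted p = 0.0429, edgeR), but this call was lost when any 1 of the 6 mice was left out. DNBS mice, at 174, 145 and 207 CPM, and TCT mice, at 197, 256 and 171 CPM against 547, 496 and 454 CPM, lay below all their controls without passing the test (-1.08, adjusted p = 0.342, and -1.27, adjusted p = 0.176, edgeR). IL10 antibody mice ranged from 25.4 CPM in mouse 4 to 1102 CPM in mouse 3, with 253 and 405 CPM in mice 1 and 2, and the change was 0.27 (95% interval -1.06 to 1.59, adjusted p = 0.749, edgeR) and -0.17 (adjusted p = 0.794) without mice 3 and 4. Mice 3 and 4, which had the low Hoxd levels, thus held both extremes of Aqp8 in this group.

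Car1 (ENSMUSG00000027556, chr3:14766216-14808368, - strand), the cytosolic carbonic anhydrase, was per kb the most abundant of the 10 transcripts in Balb/C controls, at 664 ± 102 CPM per kb, ahead of Car4 at 471 ± 26.7 and Aqp8 at 235 ± 31.8 CPM per kb. Its largest fall was in TRUC, where the 4 mice had 75.5, 57.0, 80.5 and 113 CPM, against 941, 956 and 1264 CPM in Rag2-/- controls. The highest TRUC mouse was far below the lowest control, and the change of -3.69 ± 0.79 (12.9-fold lower, adjusted p = 0.000626, edgeR) was the most negative of all 60 changes. Anti-CD40 mice reached similar levels, 102, 78.8 and 86.5 CPM, against 479, 774 and 537 CPM in the libraries labelled Rag1-/- control. The groups did not overlap, with a change of -2.74 ± 0.85 (6.70-fold lower, adjusted p = 0.0228, edgeR), though the call was lost without any 1 of the 3 anti-CD40 mice or without control 3, the change then lying between -2.88 and -2.51. TCT mice, at 451, 299 and 140 CPM, were below these controls but not past the test (-1.01, adjusted p = 0.365, edgeR).

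In IL10 antibody mice Car1 was split. Mice 1, 2 and 3 had 122, 171 and 239 CPM, below the Balb/C controls at 793, 723 and 970 CPM, and mouse 4, nearly without distal HOX transcripts, had 3442 CPM, the highest Car1 level of all 29 mice. With all 4 mice the change was 0.26 (95% interval -1.27 to 1.79, adjusted p = 0.788, edgeR). It turned to -2.24 (adjusted p = 0.000276) without mouse 4 and was -2.50 (adjusted p = 0.000632) without mice 3 and 4. DSS mice, at 427, 733 and 208 CPM, and DNBS mice, at 742, 347 and 218 CPM, overlapped the controls, and neither was called (-0.86, adjusted p = 0.425, and -0.93, adjusted p = 0.492, edgeR). Of the 50-base stretches of Car1 exons, 13.4% also occur in another gene, Gm5843, and reads from them cannot be assigned to 1 gene.

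Car4 (ENSMUSG00000000805, chr11:84957786-84966044), the carbonic anhydrase tethered to the outer face of the brush border, varied least among the mice of each control group, with 925 ± 52.5, 956 ± 54.0 and 814 ± 45.9 CPM in Balb/C, Rag2-/- and labelled Rag1-/- controls. It fell in TRUC to 263, 181, 311 and 393 CPM, where the controls had 910, 1015 and 943 CPM. No values overlapped, and the change was -1.74 ± 0.41 (3.33-fold lower, adjusted p = 0.00148, edgeR). In TCT it was at 490, 208 and 280 CPM, against 857, 766 and 819 CPM, a change of -1.32 ± 0.44 (adjusted p = 0.0264, edgeR) that was lost without TCT mouse 3 or 5 or control 2 or 4. DNBS mice, at 460, 257 and 595 CPM, lay below the controls of 923, 874 and 979 CPM without a call (-1.08, 95% interval -1.99 to -0.17, adjusted p = 0.132, edgeR).

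In DSS, Car4 stayed close to its controls while other transport genes were low. The 3 mice had 718, 1060.5 and 820 CPM, around the control values, and the change was -0.10 (95% interval -0.99 to 0.80, adjusted p = 0.890, edgeR). In anti-CD40 the change was -0.32 (95% interval -1.22 to 0.58, adjusted p = 0.646, edgeR), whereas Car1 was called lower in the same mice. IL10 antibody mice had 178, 486, 1269 and 337 CPM, the highest again in mouse 3. The change was -0.71 (adjusted p = 0.146, edgeR) with all 4 mice, -1.47 and called without mouse 3, and -1.48 (adjusted p = 0.00402) without mice 3 and 4.

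Slc9a3 (ENSMUSG00000036123, chr13:74121457-74169442, + strand), encoding NHE3, differed from the other 9 genes already in the controls. Balb/C controls had 1.22, 1.73 and 1.56 CPM, from 16 to 26 counts, Rag2-/- controls had 10.8, 19.4 and 31.3 CPM and the libraries labelled Rag1-/- control had 36.0, 32.1 and 17.0 CPM. Of the 10 genes, Slc9a3 was the one called higher in Rag2-/- than in Balb/C controls, where 3.25% of all genes were higher and 4.86% lower, and none was called lower. Every Rag-deficient control was above every Balb/C control, by 3.76 ± 1.06 for Rag2-/- (13.5-fold, adjusted p = 0.0257, edgeR) and by 4.23 ± 1.06 for the labelled Rag1-/- controls (18.7-fold, adjusted p = 0.00928, edgeR). In the latter comparison Scnn1b was lower as well, and 4.77% of all genes were higher and 6.18% lower. Between the 2 Rag-deficient control groups edgeR called none of the 10 genes (1 lower at an unadjusted p below 0.05), and 0.124% of all genes in either direction. The first call was lost without any 1 of the Balb/C controls or without Rag2-/- control 2 or 4, and the second without Balb/C control 1. Genotype and tissue piece cannot be told apart in these differences, and for the labelled Rag1-/- controls, which are C57BL/6, strain cannot be told apart from them either.

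Against the low Balb/C level, Slc9a3 rose in DSS, at 22.5, 48.0 and 28.6 CPM, by 4.44 ± 1.06 (21.8-fold, adjusted p = 0.00248, edgeR). It rose in IL10 antibody mice, at 29.2, 37.4, 308 and 81.5 CPM, by 6.23 ± 1.09 (75.2-fold, adjusted p = 6.45e-05, edgeR). No mouse of either model overlapped the controls, and in the IL10 antibody group the change was 4.45 (adjusted p = 0.000872) without mice 3 and 4, which had the 2 highest values. DNBS mice differed among themselves, with 2 counts (0.119 CPM) in mouse 11 and 34.1 and 7.34 CPM in mice 14 and 16. The change of 3.18 (95% interval 0.99 to 5.37, adjusted p = 0.0714, edgeR) was called without mouse 11 and with no filter on low counts, and leaving out single mice moved it from 1.2 to 3.77.

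Among the models on a Rag-deficient background Slc9a3 was called in 1, TCT. TRUC mice, at 13.9, 24.2, 37.7 and 34.4 CPM, overlapped Rag2-/- controls (0.42, 95% interval -1.22 to 2.06, adjusted p = 0.695, edgeR). TCT mice had 1.75, 5.98 and 7.32 CPM, all below the libraries labelled Rag1-/- control, a fall of 2.50 ± 0.94 on the log2 scale (5.67-fold lower, adjusted p = 0.0453, edgeR). Anti-CD40 mice had 106, 220 and 115 CPM, all above the same controls, but the change of 2.37 (95% interval 0.60 to 4.15) had an adjusted p of 0.0504 in edgeR. The TCT call was lost without any 1 of the TCT mice or without control 2 or 3, with changes of -2.87 to -2.09, and the anti-CD40 change was called without anti-CD40 mouse 8. Against the other controls TCT gave -2.03 (adjusted p = 0.0990, edgeR) with Rag2-/- mice and 1.72 with Balb/C mice, and anti-CD40 gave 2.84 (adjusted p = 0.0212, edgeR) with Rag2-/- mice.

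Cdx2, the caudal-type transcription factor that sets intestinal identity, is described here because over all 29 mice its level correlated more with Slc9a3 than with the other 9 genes (r = 0.71, and 0.46 within groups). Within groups Car1 (0.71) and Scnn1g (-0.61) were tied to it more closely, and Cftr about as much (0.45). It was at 3.89 to 8.12 CPM in Balb/C controls, 29.3 to 56.6 CPM in Rag2-/- controls and 73.4 to 93.1 CPM in the libraries labelled Rag1-/- control. In IL10 antibody mice it was at 15.6, 11.3, 167 and 469 CPM, and was called higher (4.93, adjusted p = 9.93e-05, edgeR). In TCT it fell by 2.56 on the log2 scale (adjusted p = 0.0199, edgeR), and in anti-CD40 and TRUC it was not called (-0.57, adjusted p = 0.632, and -0.45, adjusted p = 0.637, edgeR). Nor was it in DSS, where Slc9a3 rose (1.55, adjusted p = 0.161, edgeR), or in DNBS (1.76, adjusted p = 0.202, edgeR). The highest 2 values were those of mice 3 and 4, which stood apart in the Hoxd genes, and their part in the Slc9a3 result was not tested beyond leaving them out. The promoter window of Slc9a3 (chr13:74121163-74121462, + strand, RefSeq, GRCm38.p6), shown because this gene moved unlike the rest, holds neither TTTAT nor CAAAG.
Slc9a3: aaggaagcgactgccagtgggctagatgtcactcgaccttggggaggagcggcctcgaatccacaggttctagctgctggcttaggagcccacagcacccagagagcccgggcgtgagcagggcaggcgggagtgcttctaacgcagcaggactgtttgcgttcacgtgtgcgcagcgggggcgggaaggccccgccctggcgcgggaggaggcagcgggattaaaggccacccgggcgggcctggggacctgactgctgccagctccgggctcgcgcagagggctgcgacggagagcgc
It therefore has no capitals. The window of Cftr also holds neither motif, and that of Car4 holds TTTAT at 44.

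**Figure D3:**
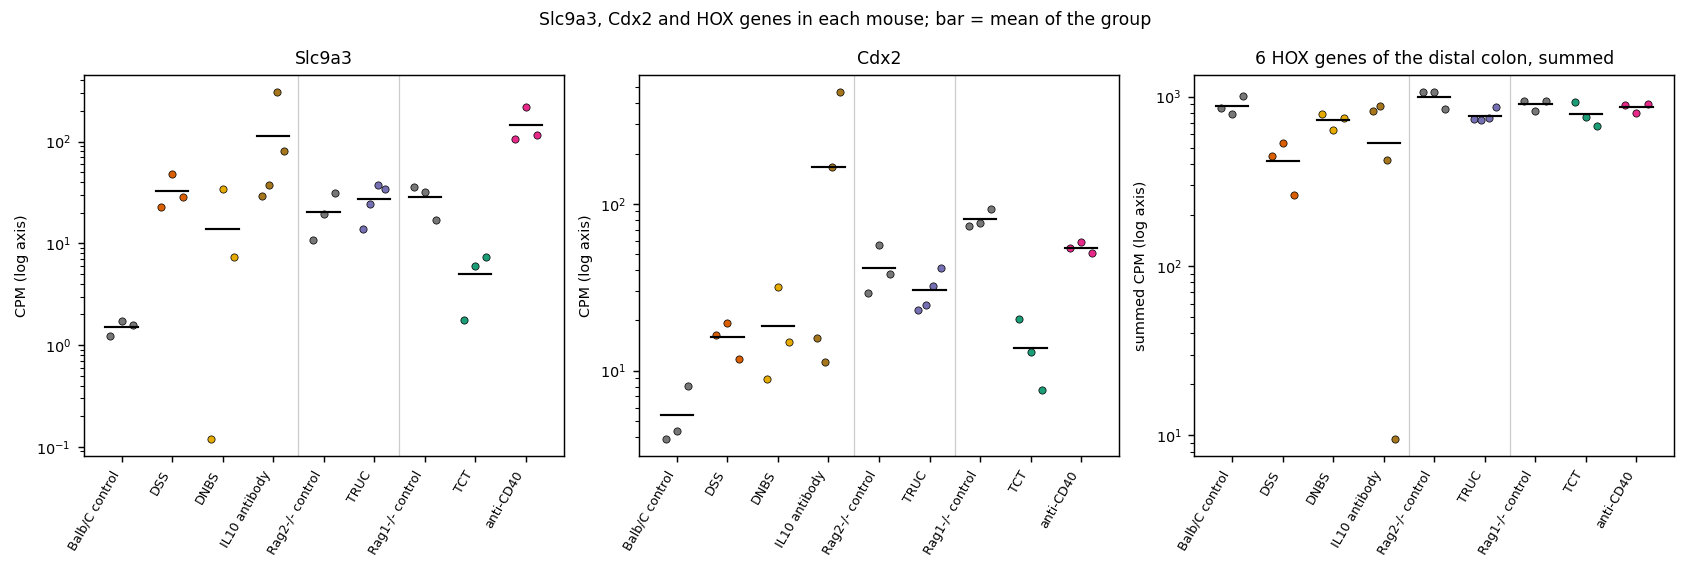
CPM of Slc9a3, of Cdx2 and of the 6 distal colon HOX genes summed, on log axes, in 3 panels by group, with 1 point per mouse and a bar at the group mean. Balb/C controls are low in both Slc9a3 and Cdx2, and IL10 antibody mouse 4 stands alone at 9.51 CPM of HOX genes, with the highest Cdx2 (469 CPM).

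The 3 ENaC genes did not move alike. Scnn1a (ENSMUSG00000030340, chr6:125320659-125344943), encoding the alpha subunit, was the most abundant of the 3 per kb in every group and was called in 1 model, DSS, whereas Scnn1b (ENSMUSG00000030873, chr7:121865038-121918514), for beta, and Scnn1g (ENSMUSG00000000216, chr7:121734479-121768475), for gamma, fell in the same 2 models, TRUC and IL10 antibody. In Rag2-/- controls the alpha, beta and gamma transcripts were at 29, 14.1 and 5.10 CPM per kb, and in TRUC at 20.6, 2.84 and 0.461 CPM per kb. In Balb/C controls they were at 44.4, 17.6 and 6.89 CPM per kb, and in IL10 antibody mice at 34.2, 4.13 and 1.71 CPM per kb.

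**Figure D4:**
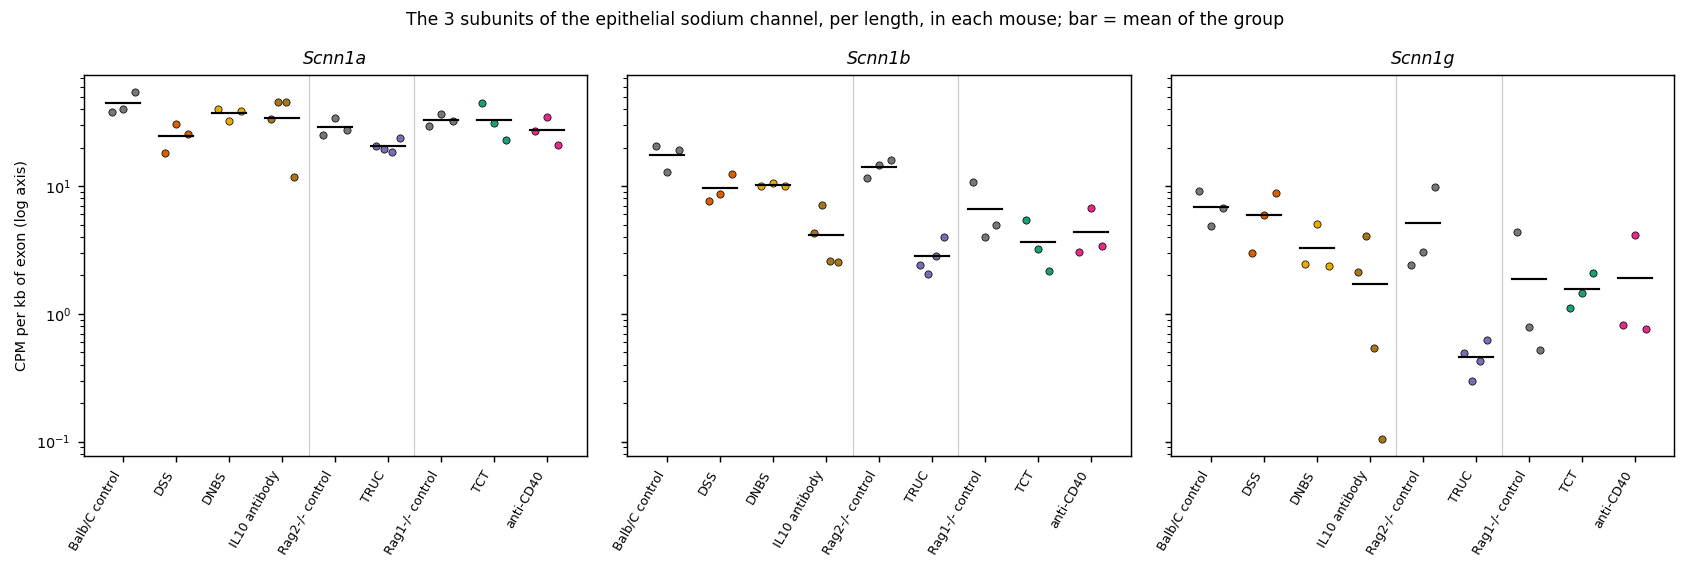
Level of Scnn1a, Scnn1b and Scnn1g in every mouse by group, in CPM per kb of exon on a log axis, with 1 point per mouse and a bar at the group mean. The alpha subunit has group means of 20.6 to 44.4 CPM per kb, and in TRUC the beta and gamma subunits have means of 2.84 and 0.461 CPM per kb.

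Scnn1b in TRUC was at 6.34, 5.43, 7.51 and 10.6 CPM, against 30.6, 38.3 and 42.2 CPM in Rag2-/- controls. No mouse overlapped, and the change was -2.31 ± 0.37 (4.95-fold lower, adjusted p = 4.25e-05, edgeR). In IL10 antibody mice it was at 11.3, 18.7, 6.78 and 6.69 CPM, against 54.3, 34.0 and 50.9 CPM. All 4 lay below the controls, by -2.10 ± 0.37 (4.27-fold lower, adjusted p = 6.62e-05, edgeR) and by -1.63 (adjusted p = 0.00364) without mice 3 and 4. DNBS mice, at 26.2, 27.6 and 26.3 CPM, and DSS mice, at 20.2, 22.7 and 32.9 CPM, also lay below all of these controls, but the changes of -0.80 and -0.88 were not called (adjusted p = 0.200 and 0.0795, edgeR).

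Scnn1b also differed between the controls. The libraries labelled Rag1-/- control had 28.4, 10.5 and 13 CPM, below all Balb/C controls by -1.42 ± 0.39 (2.68-fold lower, adjusted p = 0.0177, edgeR), a call lost without Balb/C control 1 or control 3 or 4 of the labelled Rag1-/- mice. TCT mice had 14.4, 8.55 and 5.75 CPM and anti-CD40 mice 8.08, 17.7 and 8.97 CPM, and neither was called against these low controls (-0.85, adjusted p = 0.115, and -0.58, adjusted p = 0.312, edgeR). Against Rag2-/- controls the same mice were called lower, TCT by -1.95 (adjusted p = 0.000680) and anti-CD40 by -1.68 (adjusted p = 0.00433, edgeR). The result for these 2 models thus rests on which controls are used.

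Scnn1g, the least abundant of the 3, had 7.17, 9.18 and 29.4 CPM in Rag2-/- controls and 1.47, 0.890, 1.28 and 1.87 CPM in TRUC, from 10 to 23 counts. The groups were separate and the change was -3.45 ± 0.83 (10.9-fold lower, adjusted p = 0.00177, edgeR). IL10 antibody mice had 6.41, 12.2, 1.63 and 0.314 CPM, the last from 3 counts, against 14.6 to 27.2 CPM. The change of -2.01 ± 0.75 (adjusted p = 0.0273, edgeR) was lost without Balb/C control 1 or IL10 antibody mouse 3 or 4, and was -1.15 (adjusted p = 0.225) without mice 3 and 4, which had the low Hoxd levels. In DSS the values of 9.0, 17.8 and 26.2 CPM overlapped the controls (-0.22, 95% interval -1.81 to 1.36, adjusted p = 0.851, edgeR). The libraries labelled Rag1-/- control were spread, from 1.55 to 13.1 CPM.

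Scnn1a fell in 1 model, DSS, at 74.9, 126 and 105 CPM against 158, 167 and 226 CPM. The change of -0.85 ± 0.32 (1.80-fold lower, adjusted p = 0.0427, edgeR) was lost without DSS mouse 5 or 8 or any 1 of the controls. In TRUC all 4 mice, at 76.3 to 97.8 CPM, lay below the controls of 104 to 141 CPM, but the change of -0.49 (95% interval -1.10 to 0.12) was not called (adjusted p = 0.178, edgeR). In TCT the change was -0.01 (95% interval -0.66 to 0.65, adjusted p = 0.997, edgeR).

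Scnn1g and Scnn1b lie next to each other on chromosome 7, on the same strand and 96562 bases apart, with only the predicted gene Gm44740 between them in the GENCODE annotation. Their log2 CPM correlated at 0.85 over 29 mice and 0.74 within groups, over mice that share group, library and tissue piece. Their promoter windows, chr7:121864788-121865087 for Scnn1b and chr7:121734229-121734528 for Scnn1g (RefSeq, GRCm38.p6, + strand, 5′ to 3′), are shown because the 2 neighbours moved together. Capitals again mark TTTAT and CAAAG on either strand.
Scnn1b: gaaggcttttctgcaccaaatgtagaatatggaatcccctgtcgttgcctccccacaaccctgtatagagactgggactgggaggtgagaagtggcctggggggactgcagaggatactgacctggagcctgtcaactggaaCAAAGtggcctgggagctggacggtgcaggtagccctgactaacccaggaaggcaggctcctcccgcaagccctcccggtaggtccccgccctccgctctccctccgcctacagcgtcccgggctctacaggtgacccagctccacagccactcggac
Scnn1g: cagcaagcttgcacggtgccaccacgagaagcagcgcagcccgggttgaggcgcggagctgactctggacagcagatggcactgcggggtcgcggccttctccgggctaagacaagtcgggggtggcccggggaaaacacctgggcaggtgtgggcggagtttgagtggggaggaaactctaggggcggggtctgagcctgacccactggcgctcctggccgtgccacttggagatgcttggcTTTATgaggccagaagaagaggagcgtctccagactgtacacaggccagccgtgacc
The Scnn1b window holds CAAAG at -108, and that of Scnn1g holds TTTAT at -7. The steroid receptor element searched, GNACA followed after 3 bases of any kind by TGTNC, is in neither, nor in the other 5 windows, and occurs in 0.475% of all promoter windows. Elements outside these windows were not searched.

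Cftr (ENSMUSG00000041301, chr6:18170687-18322768), the secretory chloride channel of the crypt, fell in 4 models, TRUC, DSS, TCT and anti-CD40. TRUC mice had 28.8, 21.4, 25.2 and 36.1 CPM, against 105, 101 and 133 CPM in Rag2-/- controls. The groups were clearly apart, and the change was -2.02 ± 0.43 (4.05-fold lower, adjusted p = 0.000568, edgeR). DSS mice had 34.4, 37.0 and 6.16 CPM, against 98.7, 97.3 and 76.9 CPM, a change of -1.81 ± 0.47 (3.5-fold lower, adjusted p = 0.00430, edgeR). TCT mice had 29.9, 55.9 and 34.0 CPM, against 215, 138 and 87.4 CPM, a change of -1.88 ± 0.46 (3.67-fold lower, adjusted p = 0.00334, edgeR). In both models all mice were below all controls.

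Anti-CD40 mice had 50.4, 44.2 and 68.0 CPM of Cftr, also below the libraries labelled Rag1-/- control, by -1.43 ± 0.46 (2.70-fold lower, adjusted p = 0.0271, edgeR). This call was lost without anti-CD40 mouse 6 or 7 or control 2 or 3, with changes of -1.70 to -1.06, and against Rag2-/- controls the change was -1.06 (adjusted p = 0.0897, edgeR). In IL10 antibody mice the values of 32.5 and 26.0 CPM in mice 1 and 2 lay below the controls, and those of 80.7 and 70.7 CPM in mice 3 and 4 near them. The change was -0.79 (adjusted p = 0.112, edgeR) with all 4 and -1.64 (adjusted p = 0.00908) without mice 3 and 4. DNBS gave -0.52 (95% interval -1.45 to 0.40, adjusted p = 0.491, edgeR). Cftr shares 129 exon bases with the antisense gene Gm15592, whose reads cannot be told apart without strand.

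Whether the models differed from each other was tested directly. An F test of equal changes over the 6 models, which passed for 60.5% of all genes, passed for a like share of the 10 genes, 6: Slc9a3 (adjusted p = 0.000107), Scnn1b (0.00592), Car1 (0.0219), Aqp8 (0.0259), Car4 (0.0437) and Scnn1g (0.0460), all with edgeR. It did not pass for Cftr (0.0751), Slc26a2 (0.0869), Slc26a3 (0.204) or Scnn1a (0.432). The calls of Car4 and Scnn1g were lost in 23 and 18 of the 29 fits that left out 1 mouse, and that of Aqp8 without IL10 antibody mouse 3. Slc26a3 was gained without DSS mouse 8, Slc26a2 without TCT mouse 1 or DSS mouse 6 or 8, Scnn1a without IL10 antibody mouse 4 and Cftr without IL10 antibody mouse 2. Without IL10 antibody mice 3 and 4 together, 7 genes passed, Cftr being added (adjusted p = 0.0463), and 56.4% of all genes.

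Of 150 differences between pairs of models, 12 passed the test. The share of all genes that differed ran from 1.10% between TRUC and anti-CD40 to 49.8% between DSS and IL10 antibody mice. Between TRUC and DNBS, TCT or anti-CD40 none of the 10 genes passed, where 5.13%, 9.22% and 1.10% of all genes differed. Between TRUC and DSS 1 passed, and between TRUC and IL10 antibody mice 2. Of the 12, 7 were in Slc9a3. Its change in TCT was lower than that in DSS by 6.95 ± 1.42 (adjusted p = 0.00253), than that in DNBS by 5.68 ± 1.41 (adjusted p = 0.0114) and than that in IL10 antibody mice by 8.74 ± 1.43 (adjusted p = 0.000216, edgeR). It also lay below that in anti-CD40, a difference of -4.88 ± 0.99 between models with the same controls (adjusted p = 0.00101, edgeR). The differences for TRUC were -4.02 ± 1.30 to DSS (adjusted p = 0.0352) and -5.81 ± 1.29 to IL10 antibody mice (adjusted p = 0.00965, edgeR), and that of DNBS to IL10 antibody mice was -3.06 ± 0.87 (adjusted p = 0.00941, edgeR). Of all genes tested, these pairs of models differed in 7.83%, 8.32%, 19.9%, 18.4%, 17.4%, 6.99% and 33.9%, in the order given. Of these pairs, only TCT with anti-CD40 and DNBS with IL10 antibody share controls. The other differences include the gap between controls. Slc9a3 had 1.22 to 1.73 CPM in Balb/C, 10.8 to 31.3 CPM in Rag2-/- and 17.0 to 36.0 CPM in labelled Rag1-/- controls. TRUC mice (13.9 to 37.7 CPM) overlapped DSS (22.5 to 48.0 CPM) and IL10 antibody mice. TCT mice (1.75 to 7.32 CPM) overlapped DNBS mice but lay below DSS and IL10 antibody mice. The part of the control gap was not tested.

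The other 5 concerned 4 genes. Scnn1b fell further in IL10 antibody mice than in DSS, by 1.22 ± 0.37 (adjusted p = 0.00795), and than in DNBS, by 1.30 ± 0.37 (adjusted p = 0.00891, edgeR). Cftr was lower in DSS than in DNBS, by -1.28 ± 0.46 (adjusted p = 0.0460, edgeR), where 22.6% of all genes differed. Aqp8 was lower in DSS than in IL10 antibody mice, by -2.14 ± 0.69 (adjusted p = 0.0123, edgeR), where 49.8% of all genes differed. Car1 was lower in TRUC than in IL10 antibody mice, by -3.95 ± 1.09 (adjusted p = 0.0303, edgeR), a difference that rests on a group whose Car1 change turned negative without mouse 4.

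The 10 genes varied together to different degrees, given here as descriptions over mice that share groups, libraries and tissue pieces. Besides the pairs above, Slc26a3 correlated with Slc26a2 at 0.80 over 29 mice and 0.56 within groups, Slc26a2 with Cftr at 0.79 and 0.56, and Slc26a3 with Cftr at 0.72 and 0.44. The correlations of Slc9a3 with the other 9 genes lay between -0.43 and 0.04. Among all genes tested, those most like Slc26a3 over the 29 mice were Pdp2 (0.91), Cers4 (0.90), Fastkd1 (0.90), Car2 (0.89), another cytosolic carbonic anhydrase, and Ndrg3 (0.89). Those most like Cftr were Nr5a2 (0.95), a nuclear receptor of crypt cells, Acer1 (0.95), Cat (0.94), Map3k21 (0.93) and Hpd (0.92). Those most like Scnn1b were Jade1 (0.84), Rin2 (0.83), Kantr (0.83), Ror1 (0.83) and Cyp27a1 (0.82), with correlations within groups of only 0.23 to 0.43. For Slc9a3, looked up after its values were seen, they were Slc37a1 (0.79), Cpne8 (0.78), Tmem181c-ps (0.77), Mgat4c (0.77) and Srpr (0.77).

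A further 48 genes of the same physiology, in 8 lists, were set beside the 10, and 47 of them could be tested (Pdzk1 had too few counts). In TRUC 20 were lower and 5 higher, in DSS 18 and 6, in DNBS 2 and 2, in IL10 antibody mice 12 and 14, in TCT 17 and 2 and in anti-CD40 13 and 6. The counts in IL10 antibody mice are near the shares over all genes (26.1% lower and 27.2% higher), and the shares for the other models are those given above. The median changes of the 47 genes were -0.35, -0.38, 0.02, 0.18, -0.44 and -0.34, nearer to 0 than those of the 10 genes in every model.

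Of 9 partners of Cftr in chloride secretion, 5 were lower in TRUC and 7 in DSS, and none was higher in either, where 23.4% and 16.3% of all genes were lower. The largest fall in TRUC was that of Slc4a4, the basolateral sodium-bicarbonate cotransporter, from 246 to 15.6 CPM on average (-3.97 ± 0.51, adjusted p = 3.1e-06, edgeR), and the smallest change that of the potassium channel gene Kcnn4 (-0.11, adjusted p = 0.724). Slc4a4 was lower in 5 models and negative in all 6, from -3.97 to -1.65. Of 7 genes that regulate ENaC, 4 were lower and 2 higher in TRUC, where 22.4% of all genes were higher. Sgk1, the aldosterone-induced kinase that keeps ENaC in the membrane, fell by 2.96 ± 0.46 on the log2 scale (adjusted p = 2.8e-05), and the membrane protease gene Tmprss4 rose by 0.70 (adjusted p = 0.000382, edgeR). Nr3c2, the mineralocorticoid receptor, named after its values were seen, was lower in 5 models, by between -1.07 and -0.40.

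In the guanylin system, which signals for secretion, 1 of 4 genes was called in TRUC. Of all genes tested, 23.4% were lower and 22.4% higher in that model. Guca2a, the guanylin gene, fell from 322 to 63.4 CPM (-2.35, adjusted p = 0.00517, edgeR), and the kinase gene Prkg2 gave 1.35 (adjusted p = 0.360). Of the other exchangers and NHE3 adaptors, 2 of 6 were lower in TRUC, led by the sodium-proton exchanger gene Slc9a2 (-2.19, adjusted p = 8.1e-05), while the adaptor gene Slc9a3r1 was at 0.17 (adjusted p = 0.419, edgeR). Of the other carbonic anhydrases 2 of 6 were lower and 1 higher, from -2.26 for Car14 (adjusted p = 0.00487) to 0.87 for Car12 (adjusted p = 0.203, edgeR).

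Other aquaporins moved both ways in TRUC, with 2 of 6 lower and 2 higher, from -1.52 for Aqp11 (adjusted p = 0.00202) to 3.10 for the water channel gene Aqp4 (adjusted p = 9.8e-05, edgeR). The shares over all genes in TRUC were 23.4% lower and 22.4% higher. Aqp4 was higher in 5 models and Aqp11 lower in 5. Of the sodium and proton pumps 2 of 6 were lower in TRUC and none higher, and the proton pump gene Atp12a was at 1.49 (adjusted p = 0.120, edgeR). Uptake of short-chain fatty acids was represented by 3 genes. In TRUC Slc5a8, a sodium-coupled carrier, fell by 0.70 on the log2 scale (adjusted p = 0.0107) and Bsg was at -0.05 (adjusted p = 0.786, edgeR). Slc16a1, the monocarboxylate carrier, named after its values were seen, was lower in all 6 models, DNBS included, from -1.66 to -0.47.

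**Figure D5:**
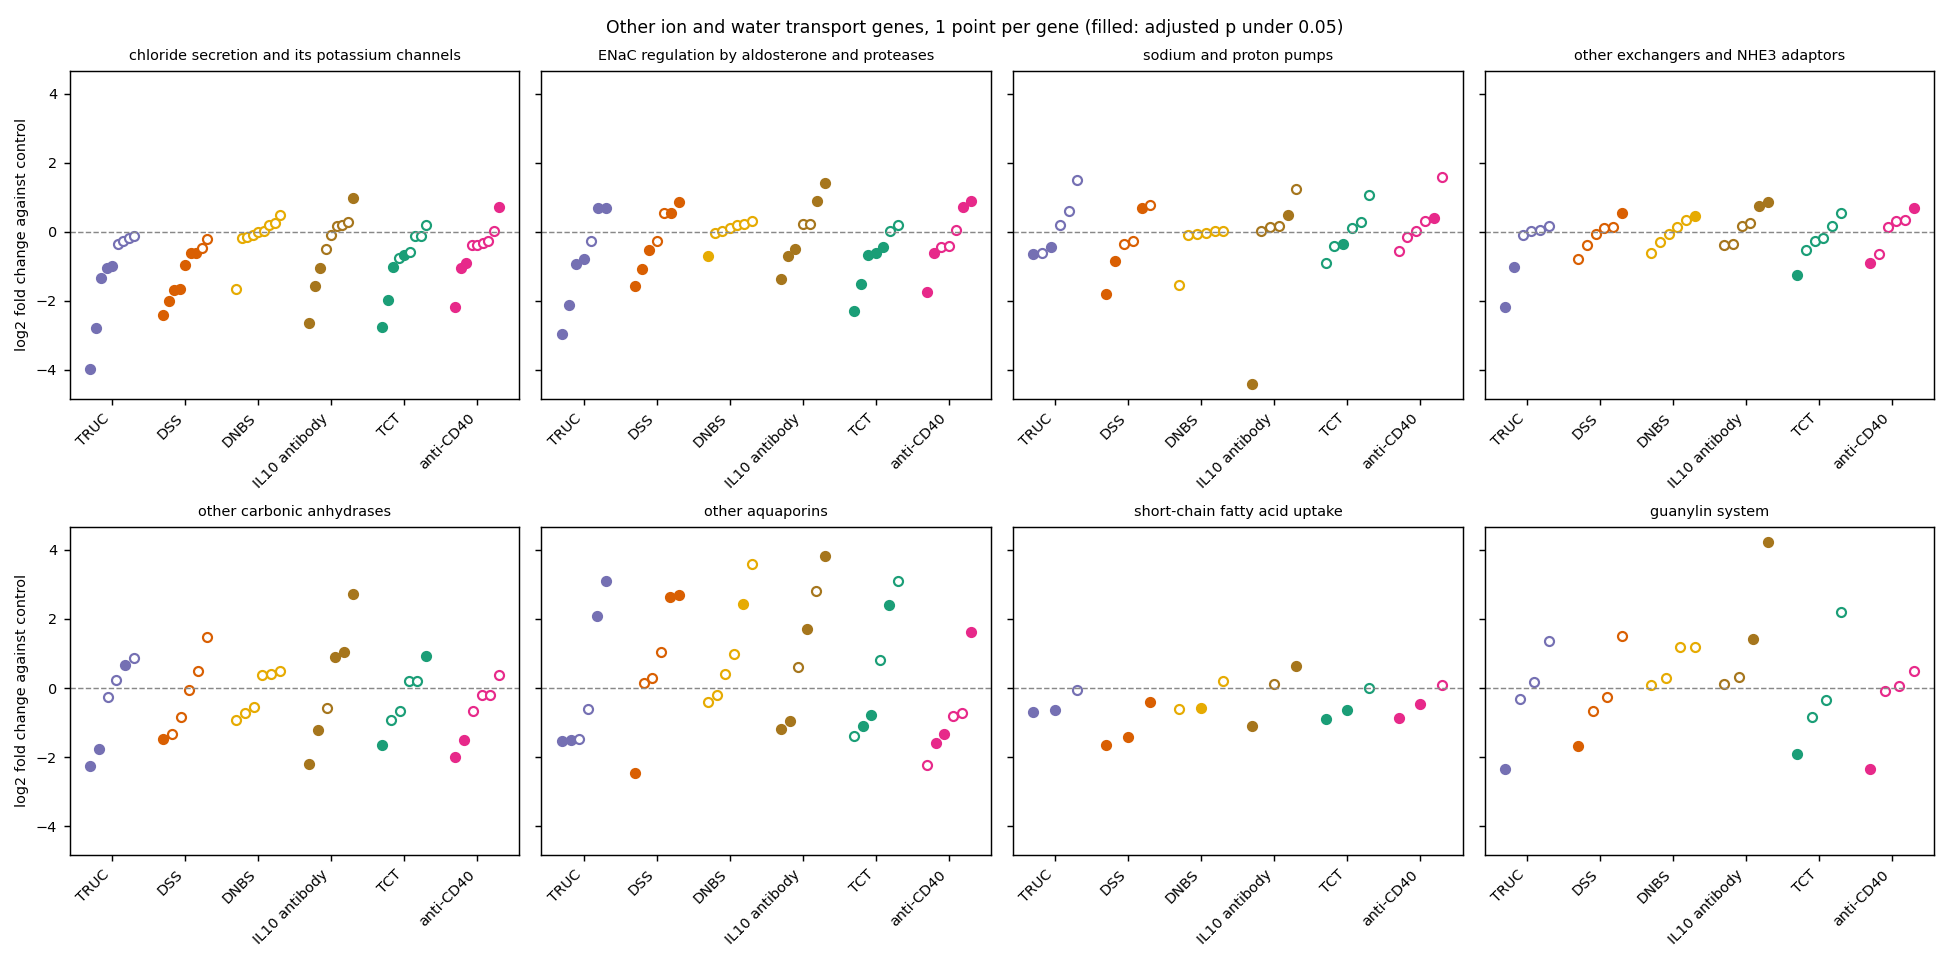
Log2 fold change of the 47 tested genes of the 8 further transport lists in each of the 6 models, with 1 panel per list, 1 point per gene in order of its change and filled points where the adjusted p of edgeR was below 0.05. The lowest TRUC and DSS points of the chloride secretion panel are Slc4a4 (-3.97 and -2.42), and the aquaporin panel spreads to both sides of 0.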

How the data were processed

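RNA from 29 mouse colons was sequenced from poly(A) libraries that do not mark strand, and the authors deposited 1 table of raw counts per gene, made per the labels' processing notes with Trimmomatic, HISAT2 and HTSeq on GRCm38 (versions not given in the sources used here). The 92 spike-in entries summed to 0 and were left out. Symbols, positions and exon lengths came from GENCODE M21. The 18616 genes whose mean count reached 3 were tested in edgeR 4.0.16 (R 4.3.3; quasi-likelihood test, TMM scaling, all 9 groups in 1 fit, Benjamini-Hochberg adjustment over all genes tested), which was checked on simulated data. The median library total was 12287039. Mice are the replicates. The 33 pairs of libraries of the same group all differed by more than counting noise (lowest chi-square divided by its degrees of freedom, 3.65). The limit of 3 counts covers counting error only. The p-values weigh each change against the spread between mice within groups, which 1 fit estimated from all 9 groups. That spread was unequal, and the chi-square ratio reached 94.6 between DSS mice 6 and 8.

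The 10 genes, the lists and the tests were chosen with earlier results of these data known. All 10 genes are named in each comparison, with the genes of each further list at the lowest and the highest log2 fold change in TRUC, sign included. Genes a result turns on and the 5 genes most alike to Slc26a3, Scnn1b and Cftr are named too. A gene that this rule names is not reported here. Alternatives were RLE, upper quartile and epithelial marker scaling, 2 other filters, DESeq2 1.42.0, edgeR on 2 groups, a threshold of 0.01, other controls, a replicate block and leaving out mice. Same-numbered mice of a model and its control did not deviate together (correlations of -0.05 to 0.06), so the main design has no block.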

Additional observations from a re-analysis of the deposited data

Results flagged for a closer look

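Car1 in IL10 antibody mouse 4 stood at 3442 CPM, so far above the other 3 mice of its group that the gap exceeded the critical value of Dixon's test. It was the only such value among the 20 sets of 4 mice tested (10 genes in TRUC and in IL10 antibody mice), and chance gives about 1 in 20. The change from control differed between the 6 models, by the F test of edgeR, for Slc9a3 (adjusted p = 0.000107), Scnn1b (adjusted p = 0.00592), Car1 (adjusted p = 0.0219), Aqp8 (adjusted p = 0.0259), Car4 (adjusted p = 0.0437) and Scnn1g (adjusted p = 0.0460), 6 of the 10 genes, as it did for 60.5% of all genes tested.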

How the results depend on the processing

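The depth of the libraries limits Slc9a3 in Balb/C controls and Scnn1g in TRUC, which rest on 16 to 26 and 10 to 23 counts, and groups of 3 or 4 mice limit every p-value. The 8 calls in TRUC remained when any 1 mouse was left out. Scaling to the epithelial markers brought the median of all genes to as low as -0.95, in IL10 antibody mice, against -0.014 with TMM. In that group 67.6% of genes were then lower and 5.75% higher. The splits were 25.3% and 12.0% in TRUC, 7.80% and 17.9% in DSS, 6.40% and 1.36% in DNBS, 6.65% and 17.0% in TCT and 11% and 3.94% in anti-CD40. Under that scaling 2 of the 10 genes were lower in DSS, 3 in DNBS, 7 in IL10 antibody mice, and, against Balb/C controls, 1 in Rag2-/- and 3 in labelled Rag1-/- controls. The shares of all genes between control groups under that scaling are not given here. Without Cdx2 among the markers, chosen after seeing the data, the numbers were 1 in DSS and 7 in IL10 antibody mice, where 6.27% and 57.0% of all genes were lower.

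At a threshold of 0.01 the genes lower were 1 in DSS, 2 in IL10 antibody mice, 2 in TCT and 0 in anti-CD40 (edgeR; 2 at an unadjusted p below 0.05, 3 by DESeq2). In DNBS, 3 were lower with the 2 groups alone, 6 with DESeq2, and 1 was higher with no filter. In anti-CD40, 1 gene was higher with RLE, with no filter, with filterByExpr, with the 2 groups alone, with DESeq2 and against Rag2-/- controls. With Balb/C mice as controls, 3 genes were lower in TCT and Slc9a3 turned to 1.72. Leaving out 1 mouse gave 0 to 2 lower and 0 to 1 higher in anti-CD40, 2 to 5 lower in TCT, 1 to 4 lower in DSS, 0 to 1 higher in DNBS, 0 to 1 higher in Rag2-/- against Balb/C controls, and 0 to 2 lower and 0 to 1 higher in labelled Rag1-/- against Balb/C controls. Car1 in IL10 antibody mice ranged from -2.24 (without mouse 4) to 0.63, and was -2.50 without mice 3 and 4, also chosen after seeing the data. Shares of all genes under these settings are not given, and those of the main fit do not apply to these counts. The causes were not tested.

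A replicate block on the numbers shared by model and control (mice 2 and 4 for TRUC, 1, 2 and 4 for IL10 antibody) pairs mice that share only a number, with correlations of -0.05 to 0.06. It gave 9 genes lower in TRUC, where Scnn1a passed (-0.64, adjusted p = 0.000316, edgeR). In IL10 antibody mice Car4 (-1.59, adjusted p = 0.0121) and Cftr (-1.22, adjusted p = 0.0458) passed and Scnn1g (-2.14, adjusted p = 0.0985, edgeR) did not. The share of all genes called with this block is not given here. The other models share fewer than 2 numbers with their controls.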
